A study of Saccharomyces cerevisiae with 12 samples.

Results

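The 5 genes described here, RPL3, RPL4A, RPL4B, RPS22A and RPS28A, are ribosomal protein genes (RPGs). They were grouped as genes known for Abf1 binding at the promoter. They are 5 of the 132 genes named RPL or RPS in the yeast annotation, and the other 127 served as the comparison. Occupancy of chromatin by sumoylated proteins had been mapped by ChIP-seq with an antibody against Smt3, the SUMO protein of budding yeast, so a SUMO peak marks DNA recovered with any protein that carries Smt3. The peak lists of 6 immunoprecipitates were analysed, 2 from each of 3 groups: untreated W303a, the wild type (WT), untreated ubc9-6, a strain mutated in the SUMO-conjugating enzyme Ubc9, and W303a moved to 37 °C for 12 min (heat shock). Every culture had reached mid-log phase in SC medium at 30 °C.

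RPG promoters in budding yeast are among the most active in the genome. At most of them Rap1 binds DNA and carries the coactivators Fhl1 and Ifh1, often with the HMG-box protein Hmo1. At a small number the general regulatory factor Abf1, which also keeps promoters free of nucleosomes elsewhere, takes the place of Rap1. Long runs of A or T, which disfavour nucleosomes, commonly lie between such a site and the start codon.

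The sequences of the 5 promoters are shown because the motifs they hold are set beside the peaks below. Each line gives 100 bases on the strand of the gene, 5′ to 3′, from sacCer3 (the RefSeq assembly R64). Capitals mark the Abf1 consensus at RPL3, RPL4A and RPS28A, and the matches to the Rap1 motif with 2 mismatches at RPS22A. At RPL4B they mark 1 of several sequences with 1 mismatch to the Abf1 consensus. RPS28B, the paralog of RPS28A, is added with its own Abf1 consensus in capitals. The stretches are chrXV:444444-444543 (plus strand) for RPL3, chrII:299974-300073 (plus) for RPL4A, chrIV:471654-471753 (plus) for RPL4B, chrXV:649082-649181 (minus) for RPS28A, chrX:75493-75592 (minus) for RPS22A and chrXII:672940-673039 (plus) for RPS28B.
RPL3: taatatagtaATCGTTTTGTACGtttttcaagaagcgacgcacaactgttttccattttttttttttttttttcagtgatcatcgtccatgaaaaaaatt
RPL4A: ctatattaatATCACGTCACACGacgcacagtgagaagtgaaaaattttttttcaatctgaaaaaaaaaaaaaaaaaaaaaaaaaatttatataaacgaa
RPL4B: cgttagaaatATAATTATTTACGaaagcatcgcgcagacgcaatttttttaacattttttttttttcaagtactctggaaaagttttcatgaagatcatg
RPS28A: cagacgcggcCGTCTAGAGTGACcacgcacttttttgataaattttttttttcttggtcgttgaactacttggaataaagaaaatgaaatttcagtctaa
RPS22A: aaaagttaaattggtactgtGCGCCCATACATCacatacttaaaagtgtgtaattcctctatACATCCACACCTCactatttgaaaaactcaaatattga
RPS28B: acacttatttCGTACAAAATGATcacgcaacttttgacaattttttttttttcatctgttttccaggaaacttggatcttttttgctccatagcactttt

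Before any comparison, the group labels need a caution. Of 22 heat-shock genes, 12 and 13 had a peak in the lists labelled ubc9-6 and 0 in either list labelled heat shock, against 7 and 4 in the WT untreated lists. The ubc9-6 and heat-shock lists may therefore have been exchanged. They are used here under the labels they carry, as "labelled ubc9-6" and "labelled heat shock", and any direction drawn from them is subject to that doubt. The doubt does not concern the WT untreated lists. The lists held between 302 and 842 peaks, the fewest in those labelled heat shock.

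The first question was which of the 5 promoters were occupied by sumoylated proteins. In WT untreated cells only RPS22A and RPL3 had a peak, and RPL4A, RPL4B and RPS28A had none in any of the 6 lists. A gene was given a peak when a summit lay between 800 bp before and 100 bp after the first base of the start codon. By that rule 2 of 5 members had a peak in both WT untreated replicates, where 120 of the 127 other RPL and RPS genes (94.5%) and 10.9% of all 6002 nuclear protein-coding genes did. The 3 members without a peak are set beside only 4 other RPL and RPS genes with none in either WT untreated list, namely RPL24A, RPS25B, RPL15B and RPL18B. No test was run on these counts, since the members were chosen as a list.

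No peak lay just outside the window of RPL4B or RPS28A. RPL4A and RPL4B are a paralogous pair that encode the large-subunit protein lining the polypeptide exit tunnel. The summit nearest to the RPL4B start codon lay 6500 bp away in WT untreated replicate 2 and 16997 bp away in replicate 1. For RPS28A, which encodes a small-subunit protein, the nearest WT untreated summits were 14871 and 9682 bp away. GLN4, the glutamine tRNA synthetase gene that runs away from RPS28A across a gap of 295 bp, therefore had no summit in that gap either.

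At RPL4A the nearest peak lay at the other end of the gene. In WT untreated replicate 2 a peak with a fold enrichment of 1.54 had its summit 1132 bp downstream of the start codon, which is 44 bp past the end of the gene. In replicate 1 the nearest summit was 26698 bp away. The promoter itself is compact, with the stop of RKM3, a gene for a ribosomal lysine methyltransferase read in the same direction, 215 bp upstream. No summit fell in that gap in any list. The RPL4A and RPL4B genes are identical at 98.9% of 1089 positions, so reads inside them cannot be assigned with certainty, whereas the 300 bp upstream, aligned without gaps, are identical at 29.0% and keep the promoters distinct.

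How low an occupancy the lists could have shown is set by the weakest peaks they hold. Among peaks with the genome-wide background, the lowest fold enrichment was 1.30 in WT untreated replicate 1 and 1.31 in replicate 2. These stood for 152 fragments over a background of 117 and 163 over 124. A promoter below about that level leaves no line in a peak list, so the 3 members were not detectable at this depth and no value can be given for them. The other RPL and RPS genes with a peak had a median fold enrichment of 10.4 in replicate 1 and 20.2 in replicate 2.

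**Figure D1:**
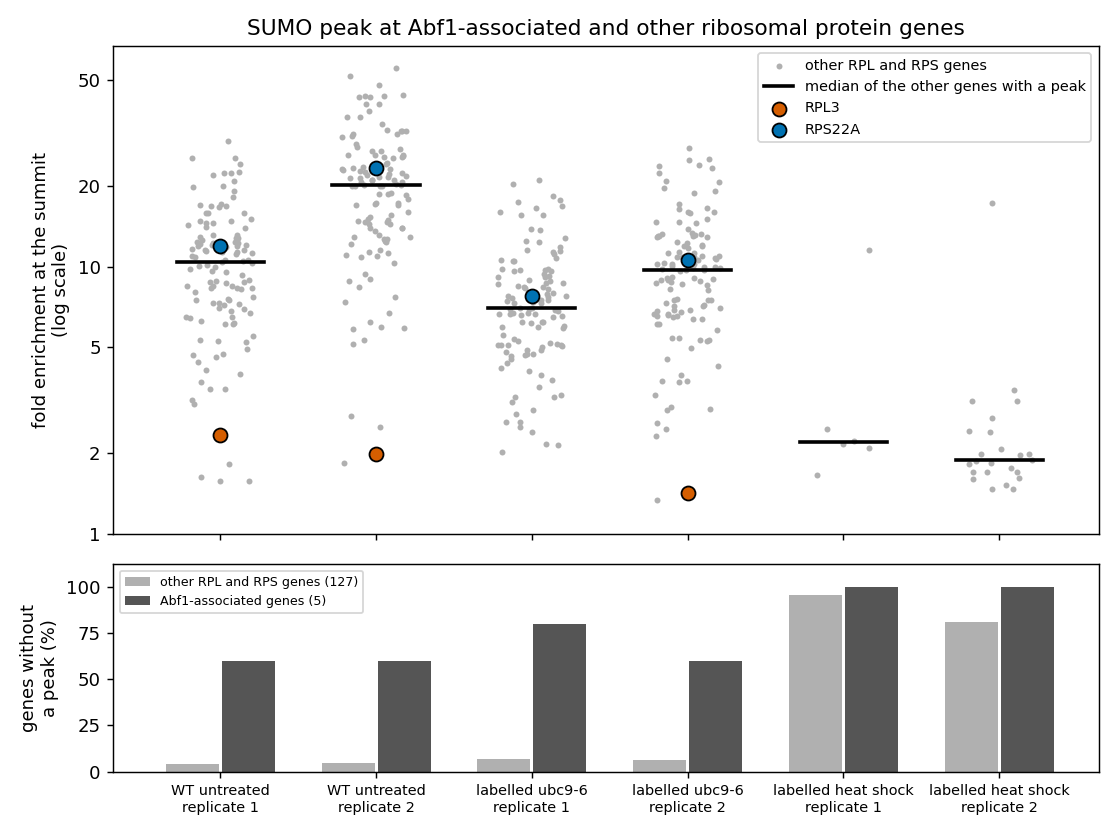
Fold enrichment at the SUMO summit (log scale) of each RPL or RPS gene with a peak, by list, with the percent of genes without a peak underneath. Grey points are the other genes, black lines their medians, and coloured points RPS22A and RPL3. RPS22A lies just above the median in the 4 lists where it has a peak (11.95 against 10.4 in WT untreated replicate 1), RPL3 lies near the bottom of the cloud, and RPL4A, RPL4B and RPS28A have no point in any list.

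RPS22A, a small-subunit gene, was the only member with a strong peak. Its fold enrichment was 11.95 in WT untreated replicate 1 and 23.4 in replicate 2, from 1406 and 2931 fragments at the summit. The 95% Poisson intervals of these fragment counts ran from 1333 to 1481 and from 2826 to 3039, and they cover counting error only. Among the RPL and RPS genes with a peak it ranked 44 of 124 in replicate 1 and 38 of 123 in replicate 2. Its fold enrichment was 1.15 and 1.16 times the median of the other genes, so RPS22A sat in the middle of the RPGs and not apart from them.

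Its place was similar in the lists labelled ubc9-6. RPS22A had a fold enrichment of 7.73 in replicate 1 and 10.5 in replicate 2, with ranks 47 of 119 and 49 of 121. In the lists labelled heat shock it had no peak, and the nearest summits were 16095 and 16112 bp away. The summit was stable in position where it was present, at 241, 254, 265 and 252 bp upstream of the start codon over the 4 lists.

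That summit cannot be assigned to RPS22A alone. RPL39, a gene for a small basic protein of the large subunit, is transcribed away from RPS22A across a gap of 630 bp, and its window holds the same summit, 390 and 377 bp upstream of its start codon in WT untreated cells. The peak spanned 962 bp in replicate 1, from chrX:75094-76055, and so reached across the intergenic region and into both genes. Whether the sumoylated protein belongs with RPS22A, RPL39 or both cannot be told apart in these data. RPS22A and RPL39 are among 6 RPL and RPS genes that share a WT untreated summit in this way, the others being RPL13A with RPS16B and RPL13B with RPS16A.

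RPL3, the gene for a large-subunit protein that reaches towards the peptidyl transferase centre, had a peak of a different kind. Its fold enrichment was 2.34 in WT untreated replicate 1 and 2.00 in replicate 2, from 275 and 249 fragments. RPL3 ranked 120 of 124 and 122 of 123 among RPL and RPS genes with a peak. The median of the other genes was 4.45 times higher than RPL3 in replicate 1 and 10.1 times higher in replicate 2, and RPS22A was 5.10 and 11.7 times higher. In the whole lists the peak stood at rank 517 of 714 and 633 of 842 by q-value.

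The replicates of RPL3 also did not follow those of the other genes. Fold enrichments were higher in WT untreated replicate 2 at all 120 other RPL and RPS genes with a peak in both, with a median ratio of replicate 2 to replicate 1 of 1.91 and a range from 1.09 to 2.19. RPS22A followed them with a ratio of 1.96. RPL3 alone fell below 1, with a ratio of 0.85. These ratios describe 1 pair of libraries. The 95% Poisson intervals of the RPL3 fragment counts, 243 to 309 and 219 to 282, overlapped, so a fall at RPL3 is not established.

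The position of the RPL3 peak was unusual as well. Its summit lay 6 bp upstream of the start codon in replicate 1 and 37 bp upstream in replicate 2. Summits of the other RPL and RPS genes lay upstream at a median of 341.5 and 340 bp from the start codon, and none of 122 in replicate 1 or 121 in replicate 2 lay closer than 50 bp. In replicate 2 the peak was 1579 bp wide and covered the whole coding region of 1164 bp to 277 bp past its end, with 3 of the 121 other genes at least as wide. In replicate 1 it was 320 bp wide and covered 13.7% of the gene, and 119 of the 122 other genes were at least as wide, so its great width was not shared by the replicates.

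In the lists labelled ubc9-6 only replicate 2 held a peak at RPL3. Its fold enrichment there was 1.42, from 199 fragments, with the summit 77 bp inside the coding region and rank 663 of 709. Replicate 1 had its nearest summit 6033 bp upstream. Neither list labelled heat shock had a peak at RPL3.

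**Figure D2:**
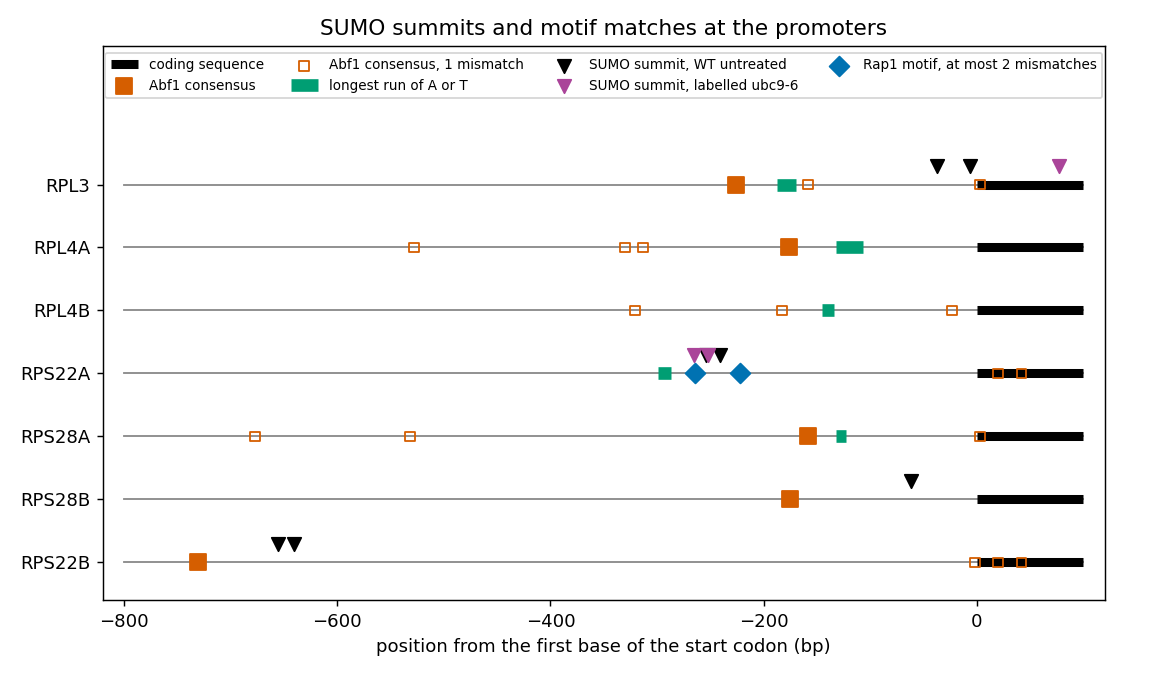
Positions of SUMO summits (triangles), motif matches and the longest run of A or T at the 5 promoters and at the paralogs RPS28B and RPS22B, in bp from the start codon (runs are drawn for the 5 members). The WT untreated summits of RPS22A lie between the midpoints of its Rap1 matches, 264 and 222 bp upstream, and those of RPL3 lie near the start codon, 220 and 189 bp from its Abf1 consensus.

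The motifs were then set against the summits. The Abf1 consensus was searched without a mismatch, and the Rap1 motif with at most 2 mismatches, both on either strand and in the same window as the peaks. Distances to a summit are from the midpoint of the match to the WT untreated summit with the better q-value, unless a replicate is named. The Abf1 consensus was found at 3 of 5 members, with its midpoint 226 bp upstream of the start codon at RPL3, 176 bp at RPL4A and 158 bp at RPS28A. It was found in 11.8% of the windows of the other RPL and RPS genes and in 22.9% of all protein-coding genes. At RPL4B the closest sequences had 1 mismatch, including that printed above 183 bp upstream. At RPS22A the only matches with 1 mismatch lay inside the coding sequence, 20 and 42 bp past the start codon, so the sequence gave no consensus for the label under which this gene was grouped.

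The Rap1 motif gave the reverse picture. RPS22A was the only member with a match, and it had 2, with midpoints 264 and 222 bp upstream. They lay 23 and 19 bp from the summit of WT untreated replicate 1 and 10 and 32 bp from that of replicate 2, on either side of both. A match was found in 72.4% of the windows of the other RPL and RPS genes and in 19.1% of all protein-coding genes. Within 100 bp of the summit, 88 of 123 other genes (71.5%) had one. Both RPS22A matches carry 2 mismatches, and with at most 1 mismatch RPS22A had no match, while 33.3% of the other genes had one near the summit. A match to a motif is not evidence of binding.

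At RPL3, where the consensus and a peak were both present, they did not coincide. The consensus lay 220 bp from the summit of WT untreated replicate 1 and 189 bp from that of replicate 2. Of the 2 members with a summit, 0 had the consensus within 100 bp of it. Only 6 of 123 other RPL and RPS genes (4.88%) had it that near, so the count is no result about the members. With 1 mismatch allowed, a search added after the data were seen, RPL3 had a match 9 bp from the summit of WT untreated replicate 1, across the start codon itself. Other RPL and RPS genes with the consensus within 100 bp of the summit included RPS21A, RPL15A, RPS22B, RPL13B and RPS16A, of which the last pair share a promoter. The summit shared by RPL13B and RPS16A had a Rap1 match closer than the Abf1 consensus, and that of RPL15A did not, with its Rap1 match 469 bp away. RPS21A and RPS22B had no Rap1 match in the window.

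All 132 genes were then sorted by sequence alone. The members are included, so for them this is not a separate observation. An Abf1 consensus without a Rap1 match was present at 7 genes, the members RPL3, RPL4A and RPS28A and the others RPS21A, RPS22B, RPS28B and RPL38. Of these, 1 had a fold enrichment above 3 in WT untreated replicate 1. Among genes with a Rap1 match and no Abf1 consensus, 81 of 82 did, and among genes with both, 11 of 11. Genes with neither were above that level in 26 of 32, so many strong peaks had no Rap1 match at this stringency. The level of 3 was not a planned threshold. Counted by a peak in both WT untreated replicates, the 4 classes gave 4 of 7, 81 of 82, 11 of 11 and 26 of 32, in the same order. Without the members these counts were 3 of 4, 80 of 81, 11 of 11 and 26 of 31. The low share of the first class therefore rests largely on the members.

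The exception among the 7 was RPL38, at 10.9 and 20.4 fold in the WT untreated replicates. Its Abf1 consensus lay 425 bp from the summit. RPS21A had 1.82 and 2.52, with the consensus 74 bp from the summit. Apart from RPL38, the genes of this class with a peak lay at the bottom of the RPGs together with RPL3.

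The paralogs of the small-subunit members completed the comparison of pairs. RPS28B had a peak in WT untreated replicate 1 alone, with a fold enrichment of 1.63 from 191 fragments and the summit 62 bp upstream. RPS22B was at 1.58 and 1.85 fold, with summits 656 and 641 bp upstream, 75 and 90 bp from its consensus at 731 bp. So the peak that RPS22A shares with RPL39 was 7.56 and 12.7 times above that of RPS22B in fold enrichment. RPS28A and RPL4A differed from their paralogs by at most a weak peak in 1 list. None of the weak peaks of RPS28B and RPS22B had a counterpart in the lists labelled ubc9-6 or heat shock.

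**Figure D3:**
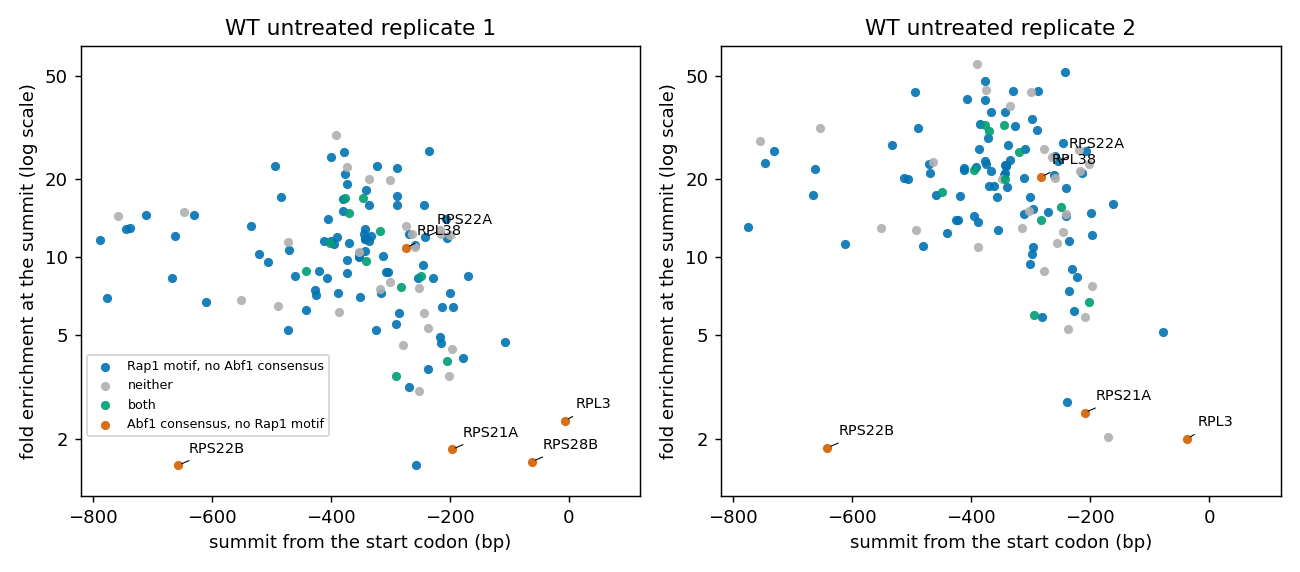
Fold enrichment (log scale) against the position of the summit for every RPL or RPS gene with a peak, in the WT untreated replicates, coloured by the motifs in the window. Genes with an Abf1 consensus and no Rap1 motif (orange) lie below 3 except RPL38, and RPL3 is the gene whose summit lies closest to the start codon, 6 and 37 bp upstream.

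The promoters had further features in common that the choice of members did not use. Every member had a run of at least 10 A or T in the window. That length was set after the sequences were read. It equals the shortest of the members' longest runs, so all members pass it by construction. Runs that long were present at 33.1% of the other RPL and RPS genes and 28.9% of all protein-coding genes. The run was 26 A at RPL4A, 132 to 107 bp upstream, which was longer than any at the other genes, whose longest was 24 and whose median was 8. It was 18 T at RPL3, 12 T at RPL4B, 13 A at RPS22A and 10 T at RPS28A. At RPL3, RPL4A, RPL4B and RPS28A the run lay between the printed Abf1 sequence and the start codon, and at RPS22A it lay upstream of the summit.

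Reading the printed sequences side by side drew attention to the letters ACGCA, which form the larger part of the GACGCA motif known for Fhl1. They lay on either strand within 30 bp of the Abf1 sequence at RPL3, RPL4A, RPL4B and RPS28A, with 14, 0, 14 and 1 bases between. RPS28B and RPS22B had them too, with 1 and 2 bases between, and RPS21A and RPL38 had none within 60 bp. Of 1785 Abf1 consensus positions without a mismatch in the nuclear genome, 6.78% had ACGCA within 30 bp. RPL4B is outside that set, since its printed sequence was picked from several with 1 mismatch. The letters alone are common, in 63.9% of all windows, and this search was chosen after the sequences were seen. Whether Fhl1 is bound there was not tested.

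The other motifs searched were those of further general regulatory factors and the A run. The Reb1 core TTACCCG and the Tbf1 core AACCCTAA were found at 0 of 5 members, against 7.09% and 2.36% of the other RPL and RPS genes and 12.7% and 2.35% of all genes. The run AAAAAAAA, searched on both strands, was found at 5 of 5, against 57.5% and 53.4%.

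Away from the RPGs few positions of the Abf1 consensus lay near a SUMO summit, though at a share above that of the genome. Outside the windows of RPGs the consensus had 1766 positions in the nuclear genome. Of these, 2.43% lay within 100 bp of a summit in both WT untreated replicates. Over the genome as a whole, not only outside those windows, 1.00% lay that close. For the Rap1 motif the share was 7.43% of 2665 positions with at most 2 mismatches, and 15.8% of 584 with at most 1. These shares are descriptions of letters and say nothing of which positions are bound.

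The genes whose profile over the 6 lists was nearest to the mean of the members were RPS9A, RPS21A, RPS22B, RPL1A and RPS28B. Likeness was the Euclidean distance of log2 fold enrichments, with a missing peak at 0, and these distances ran from 0.83 for RPS9A to 1.50 for RPS28B. RPS9A was at 1.58 and 2.76 fold in WT untreated cells and at 1.34 in labelled ubc9-6 replicate 2. RPL1A had a peak only in WT untreated replicate 2, at 2.04. The mean mixes the strong peak of RPS22A, the weak peak of RPL3 and the members set at 0. It is therefore low by construction, and genes with weak peaks had to lie nearest to it. Of these 5, RPS21A, RPS22B and RPS28B hold the Abf1 consensus without a Rap1 match, and their weak peaks are those described above. RPS9A, the nearest of the 5, holds a Rap1 match and no Abf1 consensus, and RPL1A holds neither.

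Of the genes for the factors themselves, ABF1, RAP1, REB1 and the RPG regulators FHL1, IFH1, SFP1, HMO1 and CRF1 had no peak at their promoters in any list. TBF1 had a fold enrichment of 1.73 in WT untreated replicate 2 and no peak elsewhere.

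The second question was what changed in the other groups. In the lists labelled ubc9-6, RPS22A was the only member with a peak in both replicates, against 92.9% of the other RPL and RPS genes and 8.96% of all protein-coding genes. In the lists labelled heat shock no member had a peak in both, and neither did most RPGs, with 4.72% of the other RPL and RPS genes and 3.7% of all protein-coding genes. A count of 0 of 5 is what nearly all RPGs gave there and is no result about the members.

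Of the members only RPS22A had a peak in all 4 lists and so could be tested between WT untreated and labelled ubc9-6. Its values of 7.73 and 10.5 lay below 11.95 and 23.4 without overlap, as they did in 82.9% of all 544 regions with a peak in the 4 lists and in 73.9% of the 115 other RPL and RPS regions. With 2 libraries against 2, an exact permutation p cannot go below 0.333. In limma over the 544 regions with a peak in all 4 lists, the log2 fold enrichment of RPS22A fell by 0.89 (SE 0.35, adjusted p = 0.043), on the log2 scale of the deposited ratio. That call was shared by 251 regions (46.1%), all lower, with 0% higher, and the median of all regions was itself -0.77. With each list centred on its median the difference of RPS22A was -0.11 (95% interval -0.58 to 0.35, adjusted p = 0.88), so relative to the other regions no change was detectable.

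RPS22A therefore fell with the other RPGs and not ahead of them. The 115 other RPL and RPS regions had a median of -0.78, from -1.22 to -0.37, and 31 of them were more negative than RPS22A. Without WT untreated replicate 1 the difference was -1.38 (adjusted p = 1.39e-05) and 490 regions were called. The call for RPS22A was lost without WT untreated replicate 2, where the difference was -0.40 (adjusted p = 0.23). It was also lost without labelled ubc9-6 replicate 1, at -0.67 (adjusted p = 0.47), and without replicate 2, at -1.11 (adjusted p = 0.17). The regions called by limma then numbered 72 without WT untreated replicate 2 and 0 without either labelled ubc9-6 replicate, with 17 and 130 at an unadjusted p under 0.05. RPL3 entered only when a missing peak was set to the lowest fold enrichment of its list, which gave -0.73 (adjusted p = 0.064 by limma), a value that rests on that setting for labelled ubc9-6 replicate 1.

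**Figure D4:**
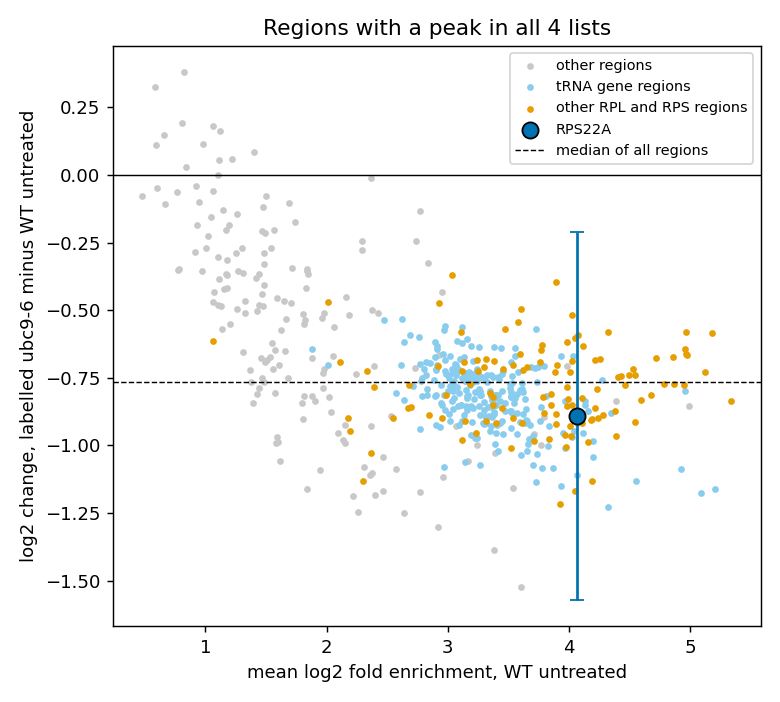
Log2 change of fold enrichment, labelled ubc9-6 minus WT untreated, against the mean log2 fold enrichment in WT untreated cells, for the 544 regions with a peak in all 4 lists. The blue point is RPS22A with its 95% interval (-1.57 to -0.21), orange points are other RPL and RPS regions, and the dashed line is the median of all regions at -0.77, on which RPS22A nearly lies.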

How the data were processed

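Paired-end reads had been aligned by the authors with Bowtie2 2.3.5 on sacCer3. Narrow peaks came from MACS2 2.1.1.20160309, run for every immunoprecipitate with its input as the control and a q-value limit of 0.05, without pooling replicates. The submitters' processing notes also name DiffBind 2.10.0. The deposited fold enrichment is a ratio over the local background at the summit, computed by the authors' peak caller with a pseudocount of 1. The deposited p-values and q-values are −log10 values of single peaks. How reads with several equal positions were placed is not given in the sources used here, so peaks at near-identical paralogs are uncertain.

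The 6 inputs entered only through peak calling. Fragment counts at summits were solved from each peak's deposited p-value and ratio and came out whole (within 0.05) for 99.0% of 3486 peaks. Genes and sequences came from RefSeq R64, in which every peak lay within its chromosome. The best peak by q-value in a window represented a gene. Regions were peaks of 4 lists merged at an overlap of 1 bp. Changes were tested with limma 3.58.1 (R 4.3.3) on log2 fold enrichment, 2 libraries against 2 and no block, with Benjamini-Hochberg adjustment and a threshold of 0.05. The procedure was tested on simulated data with independent noise and planted changes larger than that of RPS22A. That test does not bear on calls of the size reported here. Nothing but a replicate number separates the replicates in the labels, so p-values measure the spread between these libraries.

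The members, lists and tests were chosen with earlier results of these data known. Genes named were the members, their paralogs and neighbours, the 5 nearest profiles, other RPL and RPS genes with an Abf1 consensus within 100 bp of the summit or with no WT untreated peak, and 9 regulators. Some results that this rule would name are not reported here. RPL38, RPL13A and RPS16B were named after their values were seen. Alternatives changed the window, the overlap, the q-value limit, list length, motif stringency, scaling and replicates.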

Additional observations from a re-analysis of the deposited data

How the results depend on the processing

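Of 78 values under alternatives, 57 kept their direction and side of the threshold or moved by less than the limit set, and 21 did not. The number that reversed was 0, which says little. Most of the results are counts, shares or medians, which have no direction to reverse. When each list was cut to as many best peaks as the shortest list holds (302), 1 member kept a peak in both WT untreated replicates, RPL3 being lost. Leaving out a replicate gave 1 to 2 members in the lists labelled ubc9-6 and 4.72% to 18.9% of the other RPL and RPS genes in those labelled heat shock. A peak in either replicate, an alternative added after seeing the data, gave 2 members for labelled ubc9-6 and 18.9% of the other genes for labelled heat shock. The median fold enrichment over members with a peak in both replicates was 9.93 for WT untreated (RPL3 and RPS22A) and 9.14 for labelled ubc9-6 (RPS22A), and 0.999 and 1.63 when divided by that of tRNA peaks. The median summit position in WT untreated cells was -130.0 bp, over RPL3 and RPS22A alone. It lies between the summits of these genes and near neither. A Rap1 match with at most 1 mismatch was near the summit of 0 members, and an Abf1 match with at most 1 mismatch near that of 1.

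The 251 regions changed between WT untreated and labelled ubc9-6 became 0 with centred lists (87 at an unadjusted p under 0.05), 43 with missing peaks set to the lowest fold enrichment, and 0 to 490 when a replicate was left out (a lone library is then assumed to vary like the others). With the replicate block 483 regions were called and RPS22A kept its call (adjusted p = 8.07e-06). The deviations of same-numbered libraries correlated at 0.467, but 2 pairs do not establish a pairing. With missing peaks set to the lowest fold enrichment, RPS22A had an adjusted p of 0.057. The cause of these differences was not tested, and every fit without a replicate also had fewer libraries. Peak lists give no value below the caller's limit, so absence of a peak is not absence of SUMO.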
